A study of Mus musculus with 7 samples.

Results

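Long intergenic noncoding RNAs (lincRNAs) were described in cells washed from mouse lungs 3 days after lipopolysaccharide was given into the trachea. The members are the 278 genes that the deposited table classes as lincRNA and whose mean normalized count over the 7 libraries was at least 10, out of 581 lincRNA rows and 16476 rows in all. The members were thus chosen by their mean normalized count over all libraries, without use of the genotype labels. The choice was still not independent of genotype, as the mean covers 4 control and 3 knockout libraries. Of the members, 33 passed the minimum only through the controls and 11 only through the knockouts. In the control mice LysM Cre was present alone, and in the knockout mice, labelled Netrin1loxp/loxp LysM Cre, it was combined with loxP-flanked Netrin1 (Ntn1). All mice of both groups carried the Cre, all received lipopolysaccharide, and neutrophils were taken out of every lavage with an antibody. LysM Cre is an insertion into the lysozyme gene Lyz2 that deletes floxed genes mainly in macrophages, monocytes and neutrophils. There were 4 control and 3 knockout libraries of total RNA. Age and sex are not given in the labels used here, and neither is whether each library came from its own animal, so the p-values here reflect only how these libraries vary, which may be technical.

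A lincRNA is a transcript that is capped and often spliced much like a messenger RNA but has no recognised protein product. By definition it lies outside coding genes, although part of the members here overlap one or have a single exon. Some lincRNAs, such as Malat1 and Neat1, stay in the nucleus and build or coat nuclear bodies. Others are the precursors of microRNAs or carry small nucleolar RNAs (snoRNAs) in their introns, and a further group is transcribed next to an immune gene and switches on with it in stimulated macrophages and lymphocytes.

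The libraries held between 9903284 and 13353733 reads, and 3 reads corresponded to 2.65 to 3.76 normalized counts. Ntn1 itself stood at 4.16 ± 2.86 normalized counts in controls (SD, n = 4) and 0.639 ± 0.556 in knockouts (SD, n = 3), between 0 and 9 reads in a library (exact permutation p = 0.0571, 2-sided, smallest possible 0.0286). Control replicates 1 and 4 stood apart from the other libraries in Lyz2, at 76927 and 118781 normalized counts against 721 to 1052 in the other 5. Alveolar macrophage markers were present in all libraries, with summed levels of 58146 to 94729 in controls and 74902 to 127039 in knockouts, and 0 of 10 passed the test in limma, edgeR or DESeq2 (1 at an unadjusted p under 0.05). Of the markers of other cells, some lists moved with genotype and others did not. Their counts are read beside the 10.4% of all genes that rose and the 11.3% that fell. All 10 natural killer cell markers rose, with summed levels of 6083 to 11181 in controls and 35044 to 40586 in knockouts. Of 10 recruited macrophage and monocyte markers 6 fell and 2 rose, with summed levels of 33318 to 44291 against 24054 to 31809. Of 10 neutrophil markers 5 rose (10213 to 14223 against 17415 to 58946), and of 10 epithelial markers 7 rose (477 to 579 against 878 to 1308). Of 10 T cell markers 2 rose and 8 were not called, with a median log2 fold change of -0.0057. Erythroid markers, with 0 of 7 called by limma, edgeR or DESeq2 (0 at an unadjusted p under 0.05), ranged widely within both groups (1254 to 26211 and 6936 to 136707). None of these lists had a marker listed at 0 in all libraries. Their part in the lincRNA differences was not tested, and in bulk RNA fewer cells of a type and less RNA per cell cannot be told apart. The Y-linked genes Ddx3y (1382 to 1655), Kdm5d, Eif2s3y and Uty were expressed in all 7 libraries; Xist was not analysed here.

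Malat1 and Neat1, the nuclear RNAs discussed below, share letters near their 3′ ends. Each stretch shown ends at the only AAAAAGCAAAA of the transcript, and the capitals mark it and CTCAGGTTTTGCTTTT, at 16 bases the longest run that both stretches share before it. Such a stretch is known to fold into a triple helix that shields the end of both RNAs. The capitals do not mark all the bases that form it. The stretches come from the GENCODE M21 transcripts Malat1-201 (6983 bases, from chromosome 19, 5795690 to 5802672, minus strand, GRCm38) and Neat1-201 (20771 bases, from chromosome 19, 5824708 to 5845478, minus strand). They are shown because both RNAs were lower in knockouts.
Malat1: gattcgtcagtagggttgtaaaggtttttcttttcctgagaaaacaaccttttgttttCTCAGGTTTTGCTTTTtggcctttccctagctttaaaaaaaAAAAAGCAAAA
Neat1: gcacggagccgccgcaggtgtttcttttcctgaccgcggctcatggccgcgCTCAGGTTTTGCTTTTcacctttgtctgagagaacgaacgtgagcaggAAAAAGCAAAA
TTTTGCTTTT followed within 90 bases by AAAAAGCAAAA occurred in transcripts of 3 of 55450 GENCODE M21 genes, Malat1, Neat1 and the coding gene Retreg3. The adenine-rich run lies 292 bases before the annotated end of Malat1 and at the annotated end of Neat1.

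Promoters of 4 members with large or abundant changes are shown from RefSeq (GRCm38.p6), 250 bases before to 50 bases after a start, on the strand of the gene. AW112010 spans chr19:11050517-11050816 (minus strand) and its capitals mark GGAATTTCCC, a sequence of the NF-kB motif type, 70 to 61 bases before the start. Gm19585 spans chr17:52149039-52149338 (plus strand) and its capitals mark TGTGGT, the core of the RUNX motif, 61 to 56 bases before the start. The RefSeq starts of AW112010 and Gm19585 lie inside the span of each gene in GENCODE M21, not at its outermost start. Malat1 spans chr19:5802623-5802922 (minus strand) and its capitals mark TGACGT, the core of a cyclic AMP response element, on both strands, 45 to 40 and 155 to 150 bases before the start. 4930512J16Rik spans chr6:89285676-89285975 (minus strand) and held the letters of none of the 5 motifs searched in this window, so it has no capitals.
AW112010: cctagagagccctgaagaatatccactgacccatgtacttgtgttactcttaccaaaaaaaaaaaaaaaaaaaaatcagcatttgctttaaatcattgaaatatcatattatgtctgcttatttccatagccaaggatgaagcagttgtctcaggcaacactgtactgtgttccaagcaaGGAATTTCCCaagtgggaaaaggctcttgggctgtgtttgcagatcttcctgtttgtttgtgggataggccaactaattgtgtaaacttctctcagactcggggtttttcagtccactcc
Gm19585: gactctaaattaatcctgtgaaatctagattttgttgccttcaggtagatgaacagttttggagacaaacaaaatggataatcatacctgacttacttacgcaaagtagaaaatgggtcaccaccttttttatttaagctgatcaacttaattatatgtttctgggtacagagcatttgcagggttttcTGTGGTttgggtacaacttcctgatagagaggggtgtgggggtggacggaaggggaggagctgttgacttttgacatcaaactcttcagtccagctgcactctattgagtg
Malat1: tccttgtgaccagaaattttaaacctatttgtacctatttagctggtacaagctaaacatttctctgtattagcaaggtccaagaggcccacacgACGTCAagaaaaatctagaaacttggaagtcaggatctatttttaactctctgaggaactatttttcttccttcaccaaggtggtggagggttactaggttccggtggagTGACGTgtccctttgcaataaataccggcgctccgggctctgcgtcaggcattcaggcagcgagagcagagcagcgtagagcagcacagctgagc
4930512J16Rik: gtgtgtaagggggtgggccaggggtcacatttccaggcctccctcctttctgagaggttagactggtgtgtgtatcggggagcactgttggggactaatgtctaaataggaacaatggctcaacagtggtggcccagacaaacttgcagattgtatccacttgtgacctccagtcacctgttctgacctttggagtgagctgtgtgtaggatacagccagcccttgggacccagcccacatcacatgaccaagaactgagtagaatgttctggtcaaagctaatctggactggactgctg
Of the members, 121 had a promoter in the RefSeq table, with 141 promoters in all. On either strand the NF-kB motif was in 4.26% of these and in 4.51% of all 32851 promoters, TGTGGT in 15.6% and 16.8%, and TGACGT in 12.8% and 7.51%. TGANTCA, the AP-1 motif, was in 9.93% and 7.81%, and CCAAT in 36.2% and 37.4%. A match describes letters only.

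Most lincRNAs were scarce and a few carried most of the signal. The median member had a mean of 26.2 normalized counts, 231 members were below 100 and 8 reached 1000 or more. AW112010 alone held 29.0% of the summed signal of the members, Malat1 13.7%, Neat1 8.78% and AU020206 8.71%. Per kilobase of exon, which allows genes to be compared, AW112010 again led with a mean of 22468 normalized counts, ahead of AU020206 with 1704 and Malat1 with 1224. The members nearest the minimum were AC145740.1 with a mean of 10.1 and Gm26765 with 10.2 on the inside, and 2810414N06Rik with 9.78 and 3222401L13Rik with 9.76 on the outside.

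More lincRNAs fell than rose in the knockouts. At an adjusted p under 0.05 in limma, 49 of 278 members (17.6%) were lower, beside 11.3% of all 12963 genes tested, and 13 (4.68%) were higher, beside 10.4%. The median log2 fold change of the members was -0.18 and that of all genes tested 0.01. Of the 278 members 178 were below 0, beside 6233 of all 12963 genes tested. The 49 that fell differed by 1.32 to 18.8 times between group means (median 2.35; the highest, Gm42031, was 12.03 without control replicate 3) and the 13 that rose by 1.51 to 4.19 times (median 2.29). The groups did not overlap for any of these 62 members, which were chosen by their calls. Over all members the groups were apart for 73 on the lower side, beside 16.3% of all genes, and for 23 on the higher side, beside 17.4%. Of the members 33 passed the minimum only through the controls, 17 of them called lower. Another 11 passed only through the knockouts, 4 of them called higher. Among the 234 with a mean of at least 10 in both groups, 32 (13.7%) fell and 9 (3.85%) rose. That share of falls was nearer the 11.3% of all genes, and that of rises stayed below their 10.4%. The shares of all genes were not computed under this stricter minimum. By the authors' deposited table, members numbering 44 were lower and 12 higher at an adjusted p under 0.05, beside 11.4% and 10.6% of the same genes, and 43 and 11 of these were also called by limma.

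The counts depended on single libraries. Leaving out knockout replicate 2 gave 22 of the 278 members lower (beside 6.25% of all genes in the same fit) and 4 higher (beside 5.35%). Without control replicate 2 there were 27 lower (beside 7.14%), without control replicate 4 there were 30 lower (beside 7.04%) and 7 higher (beside 6.9%), and without knockout replicate 3 there were 7 higher (beside 7.93%). The count of genes called over the whole table fell in these fits as well. Without control replicates 1 and 4, the libraries with high Lyz2, 24 members fell (beside 4.45% of all genes) and 3 rose (beside 4.8%). Without control replicates 2 and 3 in their place, 14 of the 278 members fell (beside 4.78%) and 10 rose (beside 4.74%). The share of members that fell was thus near that of all genes without control replicates 2 and 3. All 62 members kept their direction in both of these fits, which was fixed in advance because their groups did not overlap. Of the 49, 9 were called in both, and of the 13, 3.

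**Figure D1:**
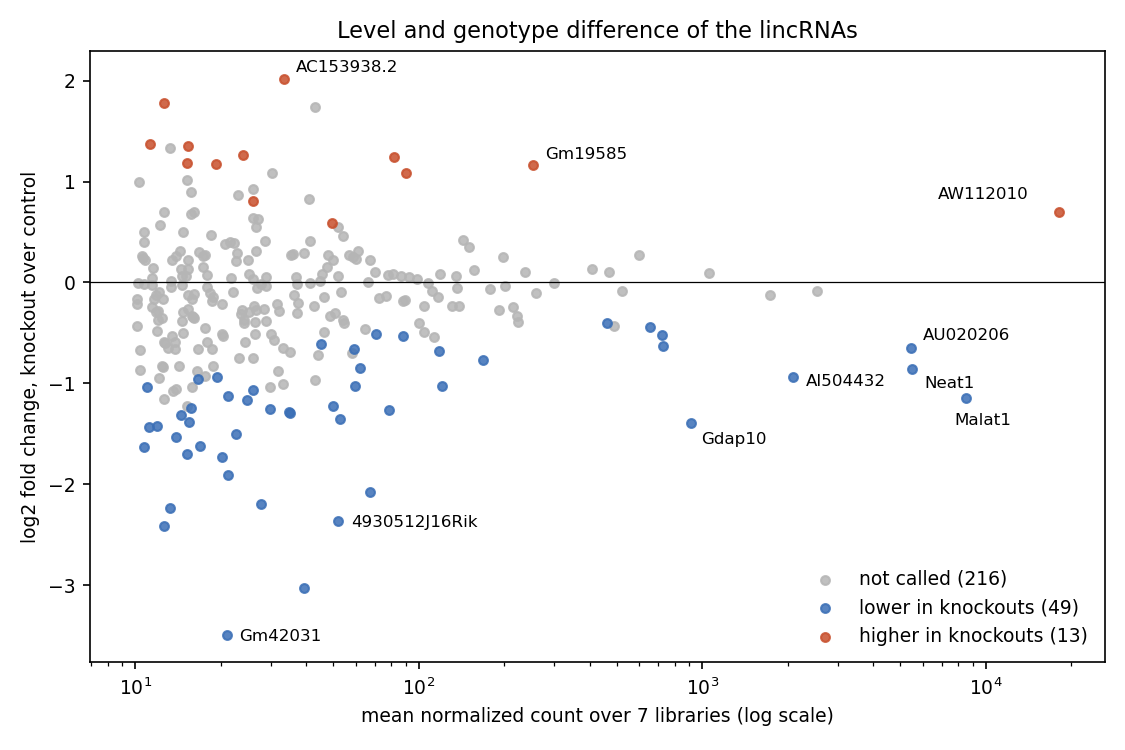
The horizontal axis gives each lincRNA's mean normalized count over 7 libraries on a log scale and the vertical axis its log2 fold change, knockout over control; each point is one of 278 lincRNAs, coloured by its call. The 49 blue points (lower) run from scarce lincRNAs up to Malat1, and AW112010, the most abundant lincRNA, is among the 13 higher ones.

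AW112010, an interferon-responsive transcript of lymphoid and myeloid cells that has been reported to encode a small protein, was the abundant lincRNA that rose. Its normalized counts were 13140, 14868, 15310 and 13521 in the controls and 27347, 20225 and 22039 in the knockouts. Every knockout library lay above every control library, with knockout replicate 1 the highest. The log2 fold change was 0.70 (SE 0.12, adjusted p = 0.00568). Without control replicates 1 and 4 it was 0.61 with an adjusted p of 0.0574. The natural killer cell markers rose in the same libraries; their part was not tested.

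Gm19585 rose as well and had the smallest p among the lincRNAs that rose. In GENCODE M21 it is transcribed from chromosome 17, 51986415 to 52163976, plus strand, in the direction away from Satb1, a chromatin organiser of T cells. Satb1 lies 153125 bases from that start, which is not the RefSeq start above. The control libraries read 154, 162, 160 and 182 normalized counts and the knockout libraries 351, 358 and 402. The groups were tight and far apart, and the difference was 1.16 on the log2 scale (SE 0.10, adjusted p = 0.000459). Satb1 rose from 2062 ± 201 to 3421 ± 427 normalized counts (SD, n = 4 and 3; log2 fold change 0.73, adjusted p = 0.00284).

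AC153862.2 lies 84638 bases from Ifngr1, a chain of the interferon gamma receptor, on the same strand. It measured 52.8, 67.5, 70.8 and 52.7 in controls and 124, 122 and 142 in knockouts. The knockout libraries thus exceeded all controls, with a log2 fold change of 1.08 (adjusted p = 0.00252, SE 0.15). Ifngr1 rose with a log2 fold change of 0.74 (adjusted p = 0.00114). AC153938.2 had 9.14, 15.7, 11.5 and 20.1 normalized counts in controls and 45.6, 56.7 and 75.0 in knockouts, the largest log2 fold change of the lincRNAs that rose (2.02, SE 0.30, adjusted p = 0.00298). Gm4316 stood at 4.06, 7.83, 7.08 and 3.76 against 14.2, 26.9 and 24.4, a rise of 1.78 in log2 terms (adjusted p = 0.0114). It was one of the 11 that passed the minimum only through the knockouts, and without knockout replicate 2 its adjusted p was 0.0549.

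Lppos was the one member with a gene-like name that rose. It is read from the strand opposite Lpp, which encodes a focal adhesion protein. The control libraries gave 25.4, 19.6, 18.6 and 15.0 and the knockout libraries 34.5, 36.5 and 32.5, so the groups were apart. Its log2 fold change was 0.80 (SE 0.22, adjusted p = 0.0329). The call was lost without any one of control replicates 2, 3 and 4 and knockout replicates 1, 2 and 3, with adjusted p between 0.0639 and 0.108, and DESeq2 gave 0.0581. Lpp fell (log2 fold change -0.59, adjusted p = 0.0194).

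Malat1, a nuclear speckle RNA that is among the most abundant noncoding transcripts of most cells, fell. It measured 9701, 10365, 10148 and 14556 normalized counts in the controls and 4515, 5158 and 5372 in the knockouts. Control replicate 4 was higher than the other 3 controls, and the lowest control was still above the highest knockout. The log2 fold change was -1.14 (SE 0.14, adjusted p = 0.00162), and it passed the threshold in all 20 alternative fits, with log2 fold changes from -1.25 to -1.01.

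Neat1, the scaffold of paraspeckles, fell too. The controls read 4773, 9560, 6669 and 6350 and the knockouts 3778, 3340 and 3858. Its controls were spread wider than its knockouts, and control replicate 1 came closest to the knockout values. The log2 fold change was -0.86 (SE 0.20, adjusted p = 0.0166); without knockout replicate 2 the adjusted p was 0.0614. Frmd8, the nearest coding gene at 4224 bases, rose by 0.31 on the log2 scale (adjusted p = 0.0195).

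Of a list of 10 RNAs known for nuclear architecture, members and others together, 7 were tested. The other 3 (Xist, Tsix and Norad) were not analysed here. Of the 7, 3 (42.9%) fell and 0 rose in limma, edgeR and DESeq2 alike (4 and 0 at an unadjusted p under 0.05). The shares of all genes in limma were 11.3% and 10.4%. All 7 had a log2 fold change below 0, beside 6233 of all 12963 genes (median -0.59, beside 0.01 for all genes). The third that fell was Kcnq1ot1, an imprinted antisense RNA and no lincRNA in the table (log2 fold change -2.23, adjusted p = 0.00458). Ftx and Jpx, noncoding genes of the X inactivation centre, had log2 fold changes of -0.46 (adjusted p = 0.133) and -0.59 (adjusted p = 0.21); Jpx passed the minimum only through the controls. For the mRNAs of proteins that bind these RNAs the shares called are read beside the 10.4% of all genes that rose and the 11.3% that fell. Of 14 paraspeckle protein genes 2 (14.3%) rose, Nono (0.22, adjusted p = 0.0415) and Hnrnpa1 (0.24, adjusted p = 0.0343), and 0 fell in limma, edgeR or DESeq2 (1 at an unadjusted p under 0.05). Of 10 speckle and Malat1-binding protein genes 1 rose and 1 fell: Hnrnpc rose (0.27, adjusted p = 0.0368) and Srrm2, a core speckle protein, fell (-0.48, adjusted p = 0.0165). Of 13 genes for Xist-binding proteins Spen and Ciz1 fell (15.4%) and Lbr rose (7.69%). Each share of these protein lists rests on 1 or 2 genes.

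Gdap10 fell most among the members with gene-like names. It lies on chromosome 12, 32821872 to 32826904, plus strand, overlapping Nampt, the enzyme of NAD salvage, on the same strand. The controls held 1083, 1419, 1036 and 1373 normalized counts and the knockouts 316, 463 and 672. All knockout libraries were below all controls, and the log2 fold change was -1.39 (SE 0.23, adjusted p = 0.0046). Nampt, which was far more abundant, was at 12745 ± 1190 and 11597 ± 869 normalized counts (SD, n = 4 and 3; log2 fold change -0.13, adjusted p = 0.37). As both lie on the same strand, reads of unspliced Nampt RNA inside Gdap10 cannot be told apart from those of Gdap10.

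Dubr, known for a part in muscle differentiation, read 715, 772, 678 and 776 in controls and 448, 538 and 659 in knockouts. The gap between the groups was narrow, and the log2 fold change was -0.44 (SE 0.12, adjusted p = 0.036). The call was lost without any one of control replicates 1, 2 and 4 and knockout replicates 1 and 2, with adjusted p between 0.0605 and 0.0974, and at 0.0537 with scaling by library size.

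AU020206, the fourth lincRNA by level, fell in all knockout libraries. It had 6094, 6754, 6393 and 6399 normalized counts in controls and 3242, 4416 and 4741 in knockouts (log2 fold change -0.65, SE 0.12, adjusted p = 0.00829). With either pair of controls left out its adjusted p was 0.0518 and 0.0668. The fifth by level, 1700020I14Rik, ran from 2377 to 2753 in controls and from 2235 to 2644 in knockouts, overlapping groups that differed by -0.09 on the log2 scale (adjusted p = 0.472).

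The 5 clone-named lincRNAs with the smallest p among those that fell were 4930512J16Rik, Gm42031, Gm26764, AC152979.5 and Gm26772. 4930512J16Rik was at 66.0, 89.0, 75.2 and 89.0 in controls and 18.3, 12.5 and 13.6 in knockouts (log2 fold change -2.36, SE 0.20, adjusted p = 0.00046). It lies 30589 bases from Plxna1, a semaphorin receptor gene on the same strand, and Plxna1 fell as well (-1.30, adjusted p = 0.00298). AC152979.5 measured 225, 221, 175 and 196 against 116, 124 and 117, a smaller difference with little spread (-0.77, SE 0.11, adjusted p = 0.00306). These calls did not depend on a library: all 5 passed in each of the 7 fits that left out one.

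The other 3 of these had few reads in the knockouts and passed the minimum only through the controls. Gm42031 had 24.4, 23.5, 73.5 and 20.1 normalized counts in controls and 1.01, 1.92 and 2.71 in knockouts, at most 3 reads in a library. Summed reads of 147 and 6 gave a ratio, control over knockout, of 19.5 (95% exact binomial interval 8.75 to 54.0, counting error only). Control replicate 3 held 83 of the 147 reads, and without it the ratio was 11.9 (5.19 to 33.7). Gm26764 read 13.2, 26.4, 23.9 and 16.3 against 2.03, 2.88 and 3.61, a ratio of summed reads of 7.08 (3.55 to 16.04). Gm26772 read 16.3, 31.3, 15.0 and 20.1 against 3.04, 2.88 and 4.52, a ratio of 5.86 (3.11 to 12.2). Adjusted p was 0.00225, 0.00278 and 0.00334 in that order.

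**Figure D2:**
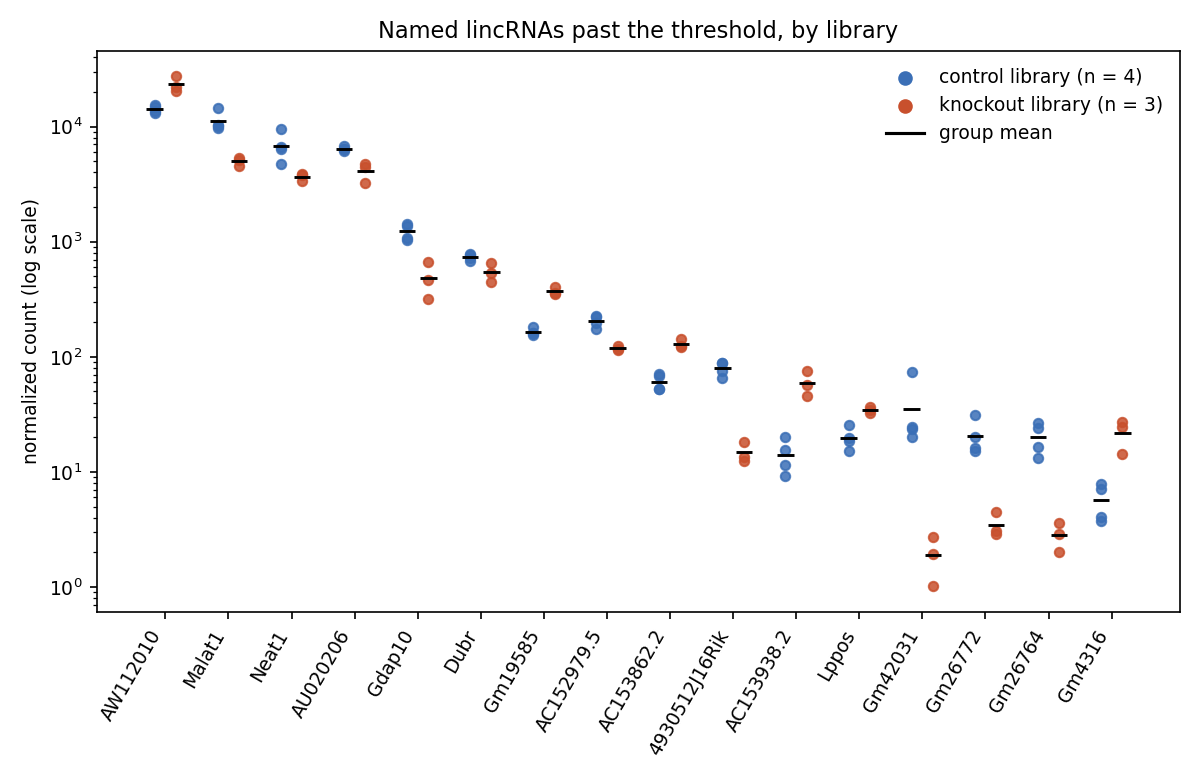
The vertical axis gives normalized counts on a log scale for the 16 named lincRNAs past the threshold, ordered by mean level along the horizontal axis; points are libraries (4 control, 3 knockout) and black bars are group means. In each of the 16, from AW112010 down to Gm4316, the control and knockout points do not overlap. The 16 were chosen for passing the test, so this gap is no separate result.

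In GENCODE M21, 12 members contain a microRNA gene on their own strand and 6 a snoRNA or small Cajal body RNA gene, 16 members in all. Of the 16, 0 were called by limma, edgeR or DESeq2 (2 were lower at an unadjusted p under 0.05 in limma). In limma 11.3% of all genes fell and 10.4% rose, and no difference from these shares was tested. The microRNAs of the hosts best known in immune cells are shown from RefSeq (GRCm38.p6) with the seed, bases 2 to 8, in capitals; the mature microRNAs were not measured. Mir155hg (chromosome 16) is a host induced by lipopolysaccharide in macrophages, Mir142hg (chromosome 11) is specific to blood cells, and Mir17hg (chromosome 14) carries a cluster tied to proliferation.
miR-155-5p: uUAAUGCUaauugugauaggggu
miR-142a-3p: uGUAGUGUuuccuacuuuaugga
miR-17-5p: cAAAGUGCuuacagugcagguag
miR-20a-5p: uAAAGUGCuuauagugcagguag
miR-18a-5p: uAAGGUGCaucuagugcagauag
miR-19a-3p: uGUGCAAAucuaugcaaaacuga
miR-19b-3p: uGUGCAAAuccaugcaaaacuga
miR-92a-3p: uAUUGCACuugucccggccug
Within the cluster miR-17-5p and miR-20a-5p share the seed AAAGUGC, and miR-19a-3p and miR-19b-3p share GUGCAAA. A further host, 6720427I07Rik on chromosome 13, carries 3 let-7 microRNAs that share GAGGUAG.
let-7a-5p: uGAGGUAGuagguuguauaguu
let-7d-5p: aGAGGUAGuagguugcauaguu
let-7f-5p: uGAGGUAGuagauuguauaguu

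Mir155hg measured 642, 666, 362 and 522 normalized counts in controls and 260, 525 and 451 in knockouts. Its groups overlapped (log2 fold change -0.43, SE 0.27, adjusted p = 0.281). Mir142hg was at 153, 212, 197 and 168 against 235, 224 and 192, again with overlap (0.25, SE 0.14, adjusted p = 0.206). Per kilobase of exon Mir142hg, with a mean of 734, was above Mir155hg with 342 and Mir17hg with 25.3. Mir17hg ran from 81.4 to 110 in controls and from 76.0 to 90.3 in knockouts (-0.18, adjusted p = 0.431), and 6720427I07Rik from 42.6 to 68.0 and from 44.3 to 60.6. Pvt1, a noncoding neighbour of Myc, was at 40.6, 49.9, 42.5 and 40.1 against 37.5, 66.3 and 56.9 (0.27, adjusted p = 0.393), while Myc rose by 0.58 on the log2 scale. A list of microRNA host genes chosen by name held 6 tested genes, Mir155hg, Mir142hg, Mir17hg, Pvt1 and the processed transcripts Mir22hg and Dleu2. It leaves out other hosts among the members, such as 6720427I07Rik. Pvt1 is not among the 12 members that contain a microRNA gene in GENCODE M21. Of these 6 genes 0 passed the test in limma, edgeR or DESeq2 (0 at an unadjusted p under 0.05). The shares of all genes in limma were 11.3% lower and 10.4% higher. In the machinery that makes and uses microRNAs 3 of 12 genes (25.0%, beside 11.3% of all genes) fell, Ago3 (log2 fold change -1.08, adjusted p = 0.00744), Ago4 (-0.57, adjusted p = 0.0195) and Ago2 (-0.46, adjusted p = 0.013), and 0 rose in limma and edgeR (1 in DESeq2, and 1 in limma at an unadjusted p under 0.05).

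Of the 6 members that hold a snoRNA or small Cajal body RNA gene, those with gene-like names were Snhg6, Snhg12, Snhg20 and Epb41l4aos. Epb41l4aos ran from 35.5 to 52.7 in controls and from 53.8 to 81.1 in knockouts, groups that did not overlap but missed the threshold (log2 fold change 0.46, SE 0.21, adjusted p = 0.147). Snhg6 was at 113 to 165 against 128 to 135, Snhg12 at 57.5 to 106 against 69.6 to 91.3 and Snhg20 at 74.0 to 107 against 71.4 to 107, all 3 overlapping, with log2 fold changes of -0.06, 0.09 and 0.06. A list of snoRNA hosts made by symbol held 13 tested genes of any class. Of these 2 rose and 2 fell (15.4% each, beside 10.4% and 11.3% of all genes). Gas5 (0.51, adjusted p = 0.00367) and Snhg1 (0.31, adjusted p = 0.0372) rose, and Snhg11 (-1.61, adjusted p = 0.0135) and Snhg14 (-1.43, adjusted p = 0.0369) fell. None of these 4 is a lincRNA in the table. Gas5 and Snhg1 are RNAs whose turnover by nonsense-mediated decay is well known. Of 14 genes of that pathway Eif4a3 (0.24) and Rbm8a (0.22), subunits of the exon junction complex, rose and the kinase gene Smg1 (-0.50) fell, 14.3% and 7.14% of the list. Of 13 snoRNP genes Dkc1 and Nop58 rose (15.4%) and Naf1 fell (7.69%). Of 18 genes of the nuclear RNA exosome and its targeting, which degrade many unstable noncoding RNAs, Exosc3 (0.39, adjusted p = 0.00818) and Exosc4 (0.40, adjusted p = 0.0493) rose and Zfc3h1 (-0.48, adjusted p = 0.0132) fell, 11.1% and 5.56% of the list. Each share of these 3 lists rests on 1 or 2 genes and is read beside the 10.4% and 11.3% of all genes.

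Of 3 members tied to inflammation or the cell cycle 0 passed the test in limma, edgeR or DESeq2 (0 at an unadjusted p under 0.05). In limma 11.3% of all genes fell and 10.4% rose, and 3 members are too few to read against these shares. Ptgs2os2, known as lincRNA-Cox2 and induced with Ptgs2 by Toll-like receptor ligands, had 71.1, 62.6, 25.7 and 91.5 normalized counts in controls and 39.5, 40.4 and 49.7 in knockouts. Control replicate 3 was the lowest library of all, below every knockout. The log2 fold change was -0.40 (SE 0.38, adjusted p = 0.478), and without control replicate 3 it was -0.77 with an adjusted p of 0.0335. Mirt1 was at 226 to 291 in controls and 211 to 286 in knockouts (-0.10, adjusted p = 0.609). Lockd, a noncoding neighbour of the cell cycle inhibitor Cdkn1b, was at 14.2 to 23.5 against 9.94 to 17.3 (-0.35, adjusted p = 0.41).

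The other members with gene-like names did not pass either. Bvht, described in heart development, ran from 15.0 to 27.6 in controls and from 5.77 to 17.2 in knockouts (-1.04, SE 0.40, adjusted p = 0.0916); without knockout replicate 3 the log2 fold change was -1.47 with an adjusted p of 0.0265. Tmem250-ps had 212 to 257 against 186 to 201, groups apart by a small amount (-0.24, adjusted p = 0.0998). Ino80dos (-0.39), Fam120aos (0.22), Prr33 (-0.14) and Smkr-ps (0.39) had adjusted p between 0.322 and 0.629. In all, 5 of the 24 members with gene-like names passed the test, 4 lower (16.7%) and 1 higher (4.17%). Of the 254 with clone-type names 45 were lower (17.7%) and 12 higher (4.72%). The shares of all genes were 11.3% and 10.4%.

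The calls were then counted by position. In GENCODE M21, whose build (GRCm38) is that of the submitters' processing notes, 275 members had a position, 254 of the 278 were lincRNA there too, 11 were antisense and 10 had another type. A coding gene on the opposite strand overlapped 55 of them. Of these 22 (40.0%) fell and 2 (3.64%) rose, with a median log2 fold change of -0.63. Of the 211 members that overlapped no coding gene, 24 (11.4%) fell, near the 11.3% of all genes, 10 (4.74%) rose, and the median was -0.13. With a mean of at least 10 in both groups, 12 of 37 (32.4%) of the overlapping members and 17 of 187 (9.09%) of the others fell. The 11.3% of all genes was not computed under this stricter minimum. The count of 22 was 10 without knockout replicate 2 (beside 6.25% of all genes called lower in that fit), 11 without control replicate 2 (beside 7.14%), 14 without control replicate 3 (beside 9.43%) or 4 (beside 7.04%), 11 without control replicates 1 and 4 (beside 4.45%), and 4 without control replicates 2 and 3 (beside 4.78%). Of 9 members that overlapped a coding gene on the same strand 3 fell and 1 rose. No source used here states the strand setting of the counting, so reads of an overlapping lincRNA and of the coding gene, introns included, cannot be told apart. For the 9 on the same strand no strand setting could separate them.

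Opposite all 55 overlapped lincRNAs, whatever their calls, 46 distinct coding genes were tested, of which 8 (17.4%) fell and 7 (15.2%) rose, beside 11.3% and 10.4% of all genes, with a median log2 fold change of -0.03. Opposite the 22 lincRNAs that fell, 20 coding genes were tested, 5 fell and 2 rose, with a median of -0.13. These 22 were chosen for being lower, so their own values beside those of their coding genes are a description and no comparison of the 2 was tested. Gm26764 (-2.42) lies opposite Sptlc2, a subunit of serine palmitoyltransferase (-0.18, adjusted p = 0.0503), and Gm26772 (-2.24) opposite Zmiz1, a transcriptional coregulator that fell (-0.68, adjusted p = 0.000656). Chosen after their values were seen, 2010300F17Rik fell (-1.63, adjusted p = 0.0152) opposite Skap1, a T cell adaptor that rose (0.82, adjusted p = 0.000987), and A930007I19Rik fell (-0.63, adjusted p = 0.0108) opposite Pdcd1lg2, the ligand PD-L2, which rose (0.53, adjusted p = 0.0264). 2010300F17Rik had at most 5 reads in a knockout library and passed the minimum only through the controls.

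**Figure D3:**
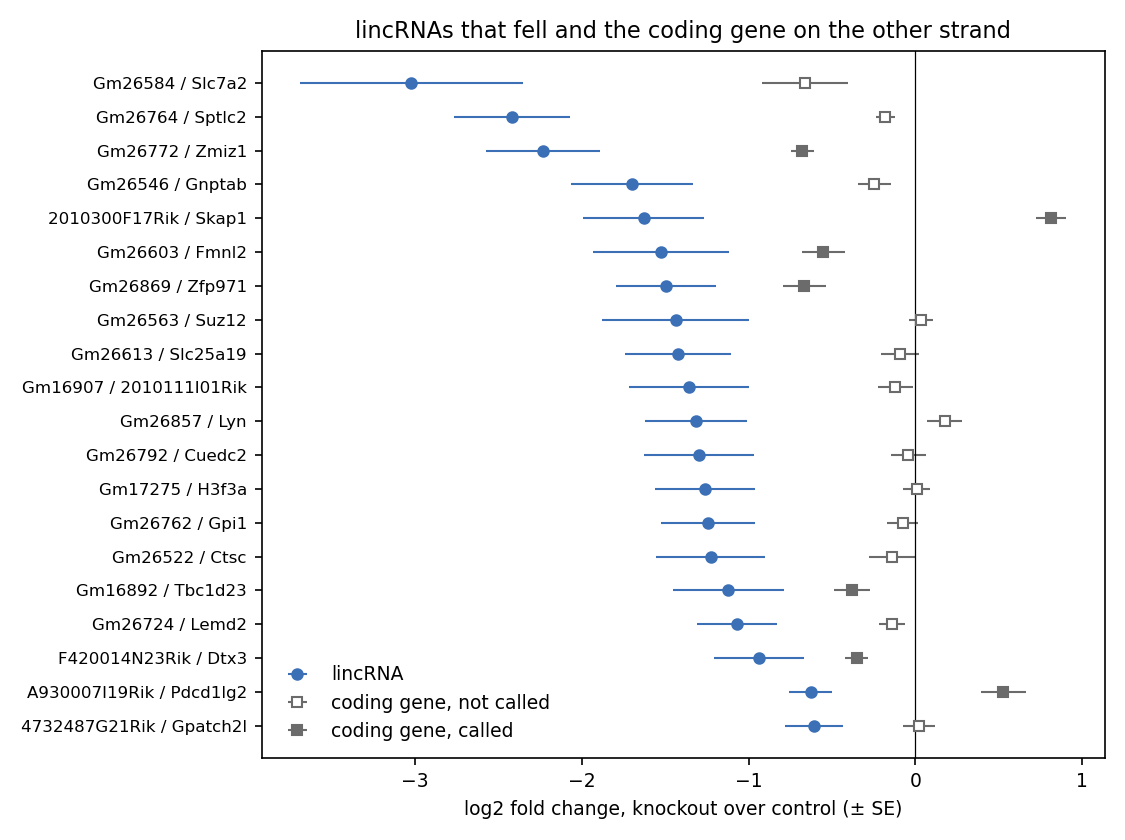
The horizontal axis gives log2 fold changes, knockout over control, with bars of 1 SE, and each line is a lincRNA that fell and the coding gene that overlaps it on the other strand. The 20 lincRNAs (blue) were chosen for being lower, so their place to the left is no result; of the coding genes (squares), those filled passed the test, 5 below 0 and 2 above.

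Nearest coding genes were read beside the members. For the 13 that rose, 10 such genes were tested, 7 rose and 1 fell; for the 49 that fell, 42 were tested, 11 fell and 4 rose. Over all members, 210 distinct nearest genes were tested, of which 15.7% rose and 12.9% fell. Chosen after their values were seen, AL589871.2, 1500 bases from Serpinb9, an inhibitor of granzyme B, had 30.5, 84.2, 68.1 and 33.9 in controls and 122, 104 and 130 in knockouts. Serpinb9 rose from 2756 ± 424 to 7587 ± 315 (SD, n = 4 and 3; log2 fold change 1.47, adjusted p = 0.00046), more than AL589871.2 (1.24, SE 0.34, adjusted p = 0.0337). AC159635.2, opposite the aryl hydrocarbon receptor gene Ahr, passed the minimum only through the knockouts and rose from 9.21 ± 3.54 to 23.6 ± 2.95 (SD, n = 4 and 3; log2 fold change 1.35, adjusted p = 0.0305), and Ahr rose by 1.06 on the log2 scale. AI504432, 1434 bases from the potassium channel gene Kcna3, fell from 2626 ± 403 to 1390 ± 366 (-0.94, adjusted p = 0.00942), and Kcna3 by a log2 fold change of -0.75 (adjusted p = 0.013).

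The calls were also counted by structure. All shares here are read beside the 11.3% of all genes that fell and the 10.4% that rose. Of the 70 members with the least exonic sequence (up to 1298 bases) 3 (4.29%) fell and 6 (8.57%) rose, and of the 69 with the most (over 3766 bases) 17 (24.6%) fell and 1 (1.45%) rose. In the classes between them (up to 2362 and up to 3766 bases, 68 members each) 12 (17.6%) and 17 (25.0%) fell and 2 (2.94%) and 4 (5.88%) rose. Among members that overlapped no coding gene, the number that fell from the shortest to the longest of these classes was 3 of 65 (4.62%), 6 of 55 (10.9%), 3 of 41 (7.32%) and 12 of 50 (24.0%), so that the second of these lay near the share of all genes. By exons, 7 of 33 members with 1 exon (21.2%) fell and 0 rose in limma, edgeR or DESeq2 (3 at an unadjusted p under 0.05). With 2 exons 24 of 93 (25.8%) fell and 4 (4.3%) rose, and with 3 or more 18 of 149 (12.1%) fell, near the share of all genes, and 9 (6.04%) rose. By level, 14 of 106 members with a mean of 10 to 20 fell (13.2%, near the share of all genes), 14 of 89 with 20 to 50 (15.7%), 12 of 57 with 50 to 200 (21.1%) and 9 of 26 above 200 (34.6%). Length, exon number, level and overlap are not independent of each other, and no difference between these classes or between the positions above was tested.

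**Figure D4:**
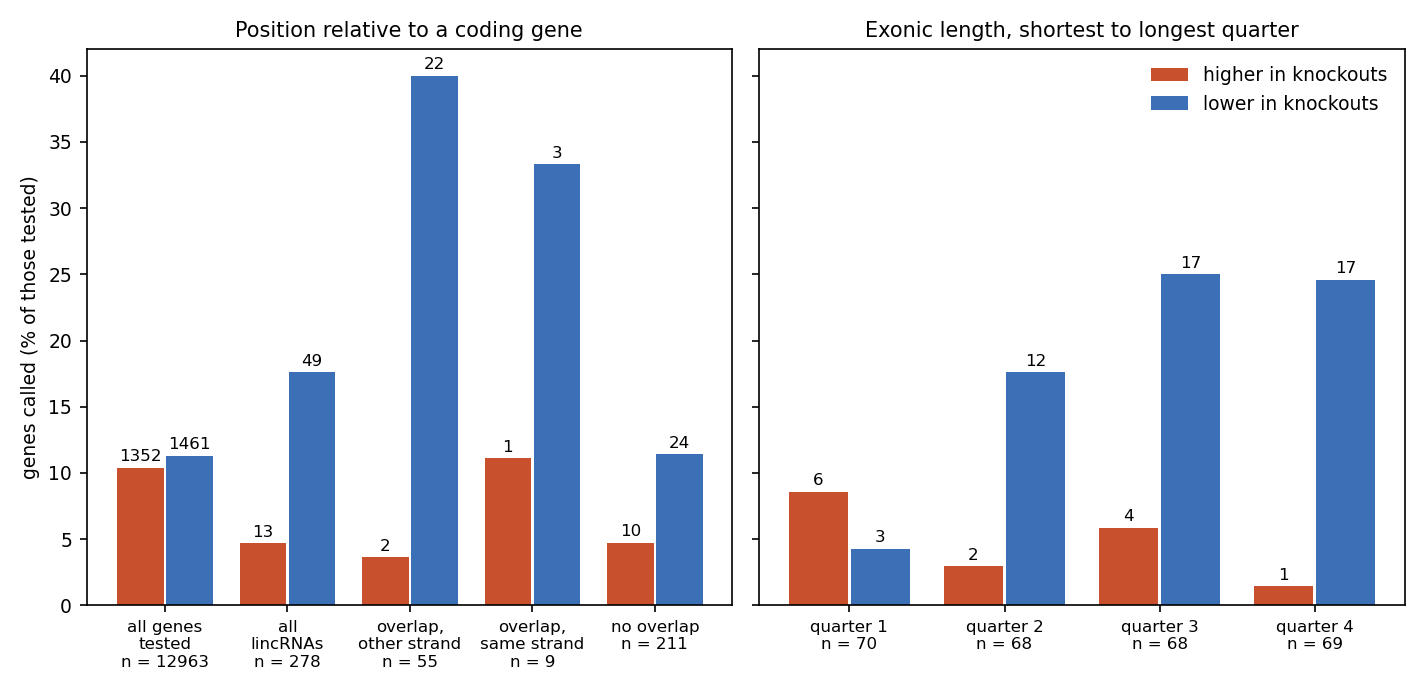
The vertical axis gives the percentage of genes called higher (red) or lower (blue) in knockouts, with the number of genes above each bar and the number tested under it; the left panel sorts lincRNAs by overlap with a coding gene beside all 12963 genes tested, the right panel by exonic length. Among lincRNAs that overlap a coding gene on the other strand 40.0% fell, beside 11.4% of those without overlap and 11.3% of all genes.

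Other noncoding categories of the table gave a range around the lincRNAs. Of 212 genes classed as TEC, a label for loci that await experimental evidence, 35.8% fell and 2.83% rose. Of 26 sense intronic RNAs 38.5% fell, of 202 antisense RNAs 21.8%, of 143 processed transcripts 12.6% and of 243 processed pseudogenes 6.17%. Protein-coding genes, 11641 of those tested, fell in 10.6% and rose in 11.1% of cases. As a share of all reads the members held 0.535 ± 0.0447% in controls and 0.486 ± 0.018% in knockouts (SD, n = 4 and 3; exact permutation p = 0.114, 2-sided). Without AW112010 the share was 0.418 ± 0.0381% and 0.294 ± 0.0163%, with no overlap between the groups (exact permutation p = 0.0571, 2-sided). AW112010 was abundant and rose, so leaving it out lowers the knockout share more than the control share. The comparison without it is therefore description only. The share of TEC genes went from 0.105 ± 0.017% to 0.063 ± 0.0118% (exact permutation p = 0.0571), and that of mitochondrially encoded genes from 1.78 ± 0.117% to 2.00 ± 0.145% (exact permutation p = 0.0857). The part of these shares in the lincRNA differences was not tested.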

How the data were processed

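RNA from bronchoalveolar lavage cells was measured in 4 control and 3 knockout libraries. The submitters' processing notes name the tools DESeq2, HTSeq, STAR (2.5.3a) and cutadapt (1.15) and the build GRCm38/mm10; no source used here states a strand setting or an annotation. The signal values are the authors' deposited normalized counts per gene (counts divided by a size factor); the deposited log2 fold changes, p-values, adjusted p-values and test statistic (a score) are the authors' own. All values (100%, within 0.01 of a read) were whole multiples of the value of 1 read, so reads were recovered for count-based alternatives and for the depth of each library. Limma 3.58.1 (R 4.3.3) with a trended prior was fitted to log2(normalized count + 1) over the 12963 genes with a mean of at least 10, without covariates, with Benjamini-Hochberg adjustment over all of them; calls are at an adjusted p under 0.05, log2 fold changes are knockout minus control on that scale, which understates changes of low genes. The fitting code was tested on simulated data. Single values were compared by an exact permutation test over the 35 splits of libraries. Alternatives were edgeR 4.0.16, DESeq2 1.42.0, limma-voom, other pseudocounts, minimums and scalings, replicate blocks and left-out libraries. No 2 libraries of a group agreed within sampling noise. Positions come from GENCODE M21, sequences from it and from RefSeq.

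Named members are all with gene-like symbols, the 5 higher and 5 lower of the others with the smallest p, and the 3 most abundant clone-named ones; those named outside this rule are marked in the text. The members, lists and libraries left out were chosen with earlier results of these data known.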

Additional observations from a re-analysis of the deposited data

Results flagged for a closer look

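Of the 36 named lincRNAs, 2 had one control library far from the other 3, with a gap to the nearest control above Dixon's critical share of the group's range; chance alone flags about 1 group in 20. Malat1 was at 14556 normalized counts in control replicate 4 (gap 0.863 of the range), and Gm42031 at 73.5 in control replicate 3 (gap 0.919 of the range).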

How the results depend on the processing

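Pseudocounts of 0.5 and 5, TMM, no minimum, edgeR, DESeq2 and limma-voom kept the counts of lincRNAs called within 1.5 times of 13 higher and 49 lower; edgeR gave 14 and 48 and DESeq2 12 and 45. A minimum mean of 20, with fewer members tested, gave 8 higher. Leaving out one library gave 4 to 12 higher and 22 to 44 lower; without control replicates 1 and 4 there were 3 and 24, and without control replicates 2 and 3 14 lower, all with fewer samples. Replicate numbers did not pair the libraries (correlations of same-numbered libraries' deviations -0.229, -0.025 and -0.188 by title, -0.077, -0.285 and 0.076 by description). A replicate block by title number gave 3 higher and 13 lower, and one by description number 4 and 24. None of the 62 called members changed direction in any of the 20 alternatives in which it was tested (0 of 1221 estimates). Their groups did not overlap, so leaving out libraries could not reverse a direction, and this count is no separate support. Members that missed the threshold reversed as follows, on the log2 scale; the cause was not tested. Without control replicates 1 and 4 Ptgs2os2 was 0.094, Snhg6 0.17, Smkr-ps -0.056 and Snhg20 -0.021; without control replicates 2 and 3 Snhg12 was -0.27. A block by title number gave -0.058 for Smkr-ps, 0.0090 for Snhg6 and -0.033 for Snhg20, and one by description number gave 0.028 for Snhg6. With one library out, Mirt1 ran from -0.20 to 0.017, Smkr-ps from -0.058 to 0.81, Snhg6 from -0.15 to 0.028, Snhg12 from -0.054 to 0.23 and Snhg20 from -0.040 to 0.25. Scaling moved the median of all genes by less than 0.1. Most members had under 100 normalized counts, where reads limit what can be called.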
